A study of Arabidopsis thaliana with 12 samples.

Results

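DTX50 (AT5G52050) encodes a carrier of the multidrug and toxic compound extrusion (MATE) family in Arabidopsis thaliana, and its transcript was followed here over wounding and light. The gene was chosen by its values on these same arrays, that is its log2 level in the 4 groups and the wound differences, so its levels and differences are given as a description, without a test. It has 1 probe set that is annotated to no other gene, and it is 1 of 13286 genes that could be read in this way. Whole rosettes were compared in 4 groups of 3 arrays each. In the light intact group, plants were kept for 60 min under a photon flux of 250 µmol per square metre and second, and in the dark intact group they spent the same time in darkness. In the light wounded and dark wounded groups, the leaves were crushed with a haemostat, in the dark under a safelight, and rosettes were frozen 60 min later. Plants first spent 30 min at 22 °C in their light or dark condition. The treatment field of dark wounded replicate 2 holds an abbreviation alone, and that sample was assigned from its other labels. As no rosettes were collected ahead of the treatments, induction by light and repression by darkness cannot be told apart. Each array carried a single RNA extract from 15 to 17 pooled plants of 1 of 3 independent replicate experiments, each of which held all 4 groups. The accession of the plants and their age at treatment are not given in the sources used here.

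MATE carriers are membrane proteins that move small molecules out of the cytoplasm, driven by a gradient of protons or sodium ions. In plants the family is large, and its members carry flavonoids, citrate, alkaloids, hormones and toxic compounds out of the cell or into the vacuole. DTX50 itself is known from Arabidopsis as a plasma membrane carrier that exports abscisic acid (ABA), the hormone of drought and stomatal closure. Crushing a leaf sets off rapid calcium and jasmonate signalling and a fast change in transcription.

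The values are log2 expression values that the authors made with GCRMA, a method that corrects the background and normalises between arrays. A probe set was tested when it reached log2 4 on at least 3 arrays, as 13567 probe sets did. Precision is limited by having 3 arrays in a group. Array medians lay between 5.40 and 5.60. Of 10 leaf markers listed, 2 were matched to a probe set of their own in the annotation used. These were RCA and PSAE-1, which stood at 15.09 or higher and 14.57 or higher on every array, and of the root markers EXPA7 was too dim to be tested while PYK10 stood between 6.70 and 9.39. PYK10 did not pass the test in any comparison of groups. The 25S ribosomal RNA control read 9.62 ± 0.95 (SD, n = 3) in dark intact rosettes, against 7.57 ± 0.77 in dark wounded, 7.27 ± 0.33 in light intact and 7.36 ± 1.06 in light wounded rosettes. The 3′ to 5′ differences of the GAPDH control lay between -0.08 and 0.27 on the 12 arrays. That of the actin control was 1.04 in dark wounded replicate 1, the array with the highest DTX50 value of its group (9.91), and between 0.54 and 0.74 on the other 11 arrays. Without that array the DTX50 difference for wounding in the dark was 5.52.

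DTX50 was close to the lower end of the scale in intact rosettes and high in wounded rosettes, in the light and in the dark alike. In the light it read 4.04, 2.77 and 2.77 in intact rosettes of experiments 1, 2 and 3, and 10.00, 9.39 and 9.54 in wounded rosettes. In the dark it read 2.79, 3.16 and 3.79 in intact rosettes and 9.91, 8.97 and 8.56 in wounded rosettes. The lowest wounded array, from experiment 3 in the dark, lay 4.52 above the highest intact array, from experiment 1 in the light, so that wounded and intact arrays did not overlap. Over all tested probe sets, all 6 wounded arrays lay above all 6 intact arrays for 719, or 5.3%, and the median gap between them was 0.44 on the log2 scale. The gap of DTX50 was the second largest of these 719. In bulk rosettes, fewer cells that express the gene and less transcript per cell cannot be told apart, and each extract mixed crushed tissue with the rest of the rosette.

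**Figure D1:**
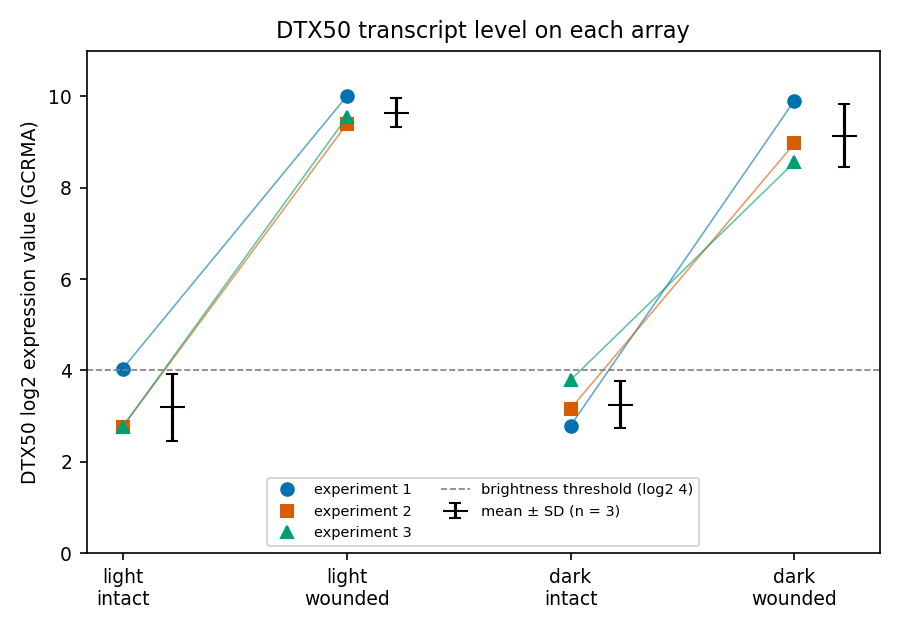
DTX50 log2 expression value (vertical axis) on each array of the 4 groups (horizontal axis), with a marker and colour per replicate experiment, thin lines joining intact and wounded rosettes of an experiment, and black bars for the mean ± SD of 3 arrays. The 6 wounded arrays sit between 8.56 and 10.00 and the 6 intact arrays between 2.77 and 4.04, 5 of them below the dashed brightness threshold of log2 4.

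The group means ran from light wounded (9.64 ± 0.32, SD, n = 3) through dark wounded (9.14 ± 0.69) and dark intact (3.25 ± 0.51) to light intact rosettes (3.19 ± 0.73). The wounded groups, first and next in this order, overlapped with each other, as did the intact groups. The step from dark wounded to dark intact is the one at which the arrays parted. Of the 6 intact arrays 5 read below log2 4, so its differences from intact rosettes are those of the deposited values, and bounds with a floor at log2 4 are given beside them.

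Wounding in the light came with a DTX50 level higher by 6.45 ± 0.43 on the log2 scale (SD over 3 experiments), from differences of 5.96, 6.62 and 6.77 in experiments 1, 2 and 3. With each intact array raised to at least log2 4, this is at least 49.6-fold. In the dark the level was higher by 5.90 ± 1.18, from differences of 7.12, 5.81 and 4.77, and at least 35.4-fold on the same footing. The order of the experiments in the light depended on intact values below log2 4. With the floor at log2 4 the differences were 5.96, 5.39 and 5.54 in the light and 5.91, 4.97 and 4.56 in the dark, so that experiment 1 had the smallest difference in the light as deposited and the largest with the floor. The intact array of experiment 1 was the highest of its group in the light (4.04) and the lowest of its group in the dark (2.79). Among all 13567 tested probe sets, 4 had a larger difference than DTX50 for wounding in the light and 0 had a larger one in the dark. The percentiles 5 and 95 of all these differences were -0.84 and 1.42 in the light and -0.61 and 1.13 in the dark. The 25S control was also lower after wounding in the dark (7.57 against 9.62), and with its value as a covariate the DTX50 difference in the dark was 5.82 and in the light 6.45.

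**Figure D2:**
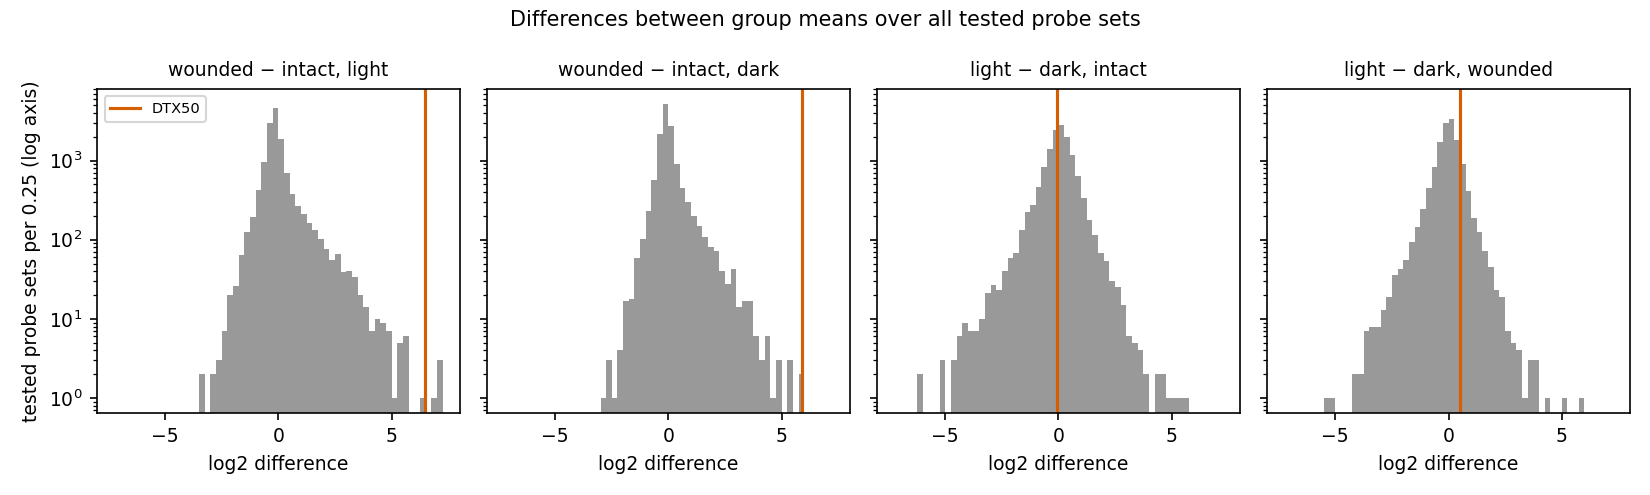
Number of tested probe sets (vertical axis, log scale, in bins of 0.25) by log2 difference of group means (horizontal axis) for wounding in the light, wounding in the dark, light against dark in intact rosettes and light against dark in wounded rosettes. The orange line marks DTX50, at 6.45 and 5.90 in the tail of the distributions for wounding. For light it lies at -0.05 in intact rosettes, near the centre. In wounded rosettes it lies at 0.50, above the median of 0.01 and below the 95th percentile of 0.87.

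Between light and dark the arrays of DTX50 overlapped, in intact and in wounded rosettes. In intact rosettes light minus dark was -0.05 ± 1.17 (log2, SD over 3 experiments), from differences of 1.25, -0.38 and -1.02, so that the sign changed between experiments, among values of which 5 of 6 lie below log2 4. In wounded rosettes the light level was higher by 0.50 ± 0.45, a fold of 1.4, and the difference was above 0 in each experiment, at 0.09, 0.43 and 0.98. Across experiments, however, dark wounded replicate 1 (9.91) lay above light wounded replicates 2 (9.39) and 3 (9.54). The difference between the wound effects in the light and in the dark was 0.55 ± 1.60, from -1.16, 0.81 and 2.00 by experiment, and its sign depended on intact values below log2 4. With the floor at log2 4 it was 0.49 ± 0.46, from 0.06, 0.43 and 0.98. The floor sets 5 of the 6 intact arrays to the same value. These values therefore nearly repeat light minus dark in wounded rosettes (0.09, 0.43 and 0.98) and are no separate estimate. Among the 716 probe sets that limma called higher after wounding both in the light and in the dark, the median of light minus dark in wounded rosettes was -0.05, and 132 lay above DTX50. For the difference between the wound effects, the deposited 0.55 of DTX50 lay just above the 95th percentile of all tested probe sets (0.53). Among the same 716 the median was 0.33 and 225 lay above DTX50.

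The MATE family holds 55 other loci on a list drawn up from background knowledge of Arabidopsis. Of these, 36 were matched to a probe set of their own in the annotation used, and 17 were bright enough to be tested. The other 19 failed the brightness filter, which counts wounded arrays too, so that they were dim in wounded rosettes follows from the filter. Of their 228 values 2 reached log2 4, both on intact arrays. DTX50 itself passed the brightness filter through its wounded arrays. The members are named by locus, since most carry no symbol in the annotation used, and hybridisation between close relatives in the family was not tested.

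Wounding in the light raised 3 of the 17 (limma, Benjamini-Hochberg adjusted over all 13567 probe sets), and lowered 0, with 1 lower at an unadjusted p under 0.05. Over all tested probe sets 8.48% were called higher and 6.37% lower. The median difference of the 17 was -0.09, against -0.15 over all tested probe sets. AT1G61890 read 10.54, 10.06 and 9.77 in light intact rosettes and 13.64, 13.49 and 13.41 in light wounded ones. It rose by 3.39 ± 0.37 (log2, limma SE, adjusted p = 0.000156), a 10.5-fold change with no overlap of the arrays. AT1G11670 rose by 3.21 ± 0.61 (limma adjusted p = 0.00407), from 6.13, 6.66 and 5.88 to 9.30, 10.12 and 8.86. AT5G44050 rose by 1.36 ± 0.32 (limma adjusted p = 0.0137), a call that was lost without light intact replicate 2 or without light wounded replicate 1 or 2 (limma adjusted p between 0.0566 and 0.0646). With the replicate experiment as a block 5 of the 17 passed, where 27.3% of all probe sets did. AT5G44050 was among them (limma adjusted p = 0.000806). The block added a rise of AT1G66760 (2.31, limma adjusted p = 0.000333 against 0.0710 without the block) and a fall of AT1G33110 (-0.44, 0.0396 against 0.0899). Without the block AT1G66760 passed when dark intact replicate 2 was left out (limma adjusted p = 0.0414) and AT1G33110 when light wounded replicate 3 was left out (0.0334).

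In the dark AT1G61890, AT1G11670 and AT5G44050 rose, and 0 of the 17 fell, with 0 lower at an unadjusted p under 0.05, while 5.84% of all probe sets were called higher and 2.28% lower. AT1G11670 read 4.11, 7.04 and 5.64 in dark intact rosettes and 8.83, 9.45 and 8.43 in dark wounded ones, a rise of 3.31 ± 0.61 (limma adjusted p = 0.00645). By experiment its rise was 4.72, 2.41 and 2.79, and as for DTX50 the intact array of experiment 1 was the lowest. AT1G61890 rose by 2.87 ± 0.37 (limma adjusted p = 0.00109), or by 3.88, 2.01 and 2.70 by experiment, again with the lowest intact array in experiment 1. AT5G44050 rose by 1.16 ± 0.32 (limma adjusted p = 0.0467). Its call was lost without dark intact replicate 2 or 3, any dark wounded replicate, light intact replicate 3, or light wounded replicate 1 or 2 (limma adjusted p between 0.0573 and 0.161), and with quantile normalization (0.0643). The block added AT1G66760 (1.51, limma adjusted p = 0.00535 against 0.347), so that 4 of the 17 passed, against 15.1% of all probe sets. With the 25S control as a covariate AT1G61890 and AT1G11670 passed in the dark and AT5G44050 did not (1.31 ± 0.48, limma adjusted p = 0.262). The probe sets called fell from 1102 to 248 with this covariate.

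**Figure D3:**
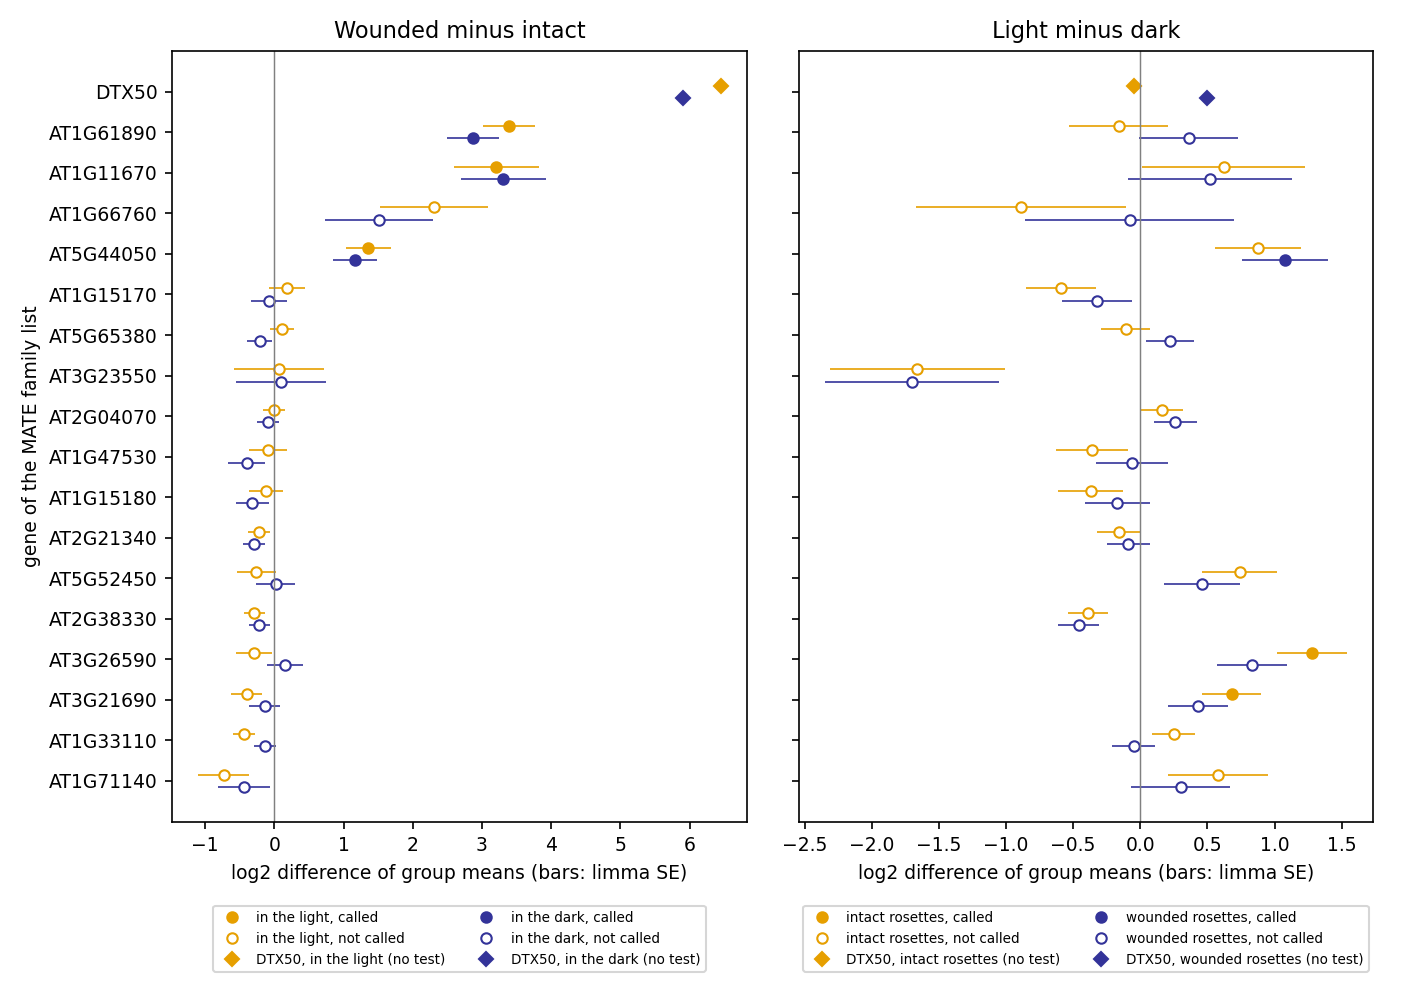
Log2 difference of group means (horizontal axes) for DTX50 and the 17 other tested loci of the MATE list (vertical axis), for wounded minus intact (left) and light minus dark (right); bars are limma SEs, filled circles are called at an adjusted p under 0.05 and DTX50, a diamond, has no test. DTX50 lies at 6.45 and 5.90 for wounding, beyond AT1G61890 (3.39 and 2.87) and AT1G11670 (3.21 and 3.31), while 13 loci lie between -0.73 and 0.18 in the light.

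For light against dark, in intact rosettes 2 of the 17 were higher in the light and 0 lower, with 3 lower at an unadjusted p under 0.05, where 12.3% of all probe sets were called higher and 10.9% lower. AT3G26590 was higher by 1.28 ± 0.26 (limma adjusted p = 0.00499), at 8.32, 8.34 and 8.91 in the light and 6.87, 7.12 and 7.73 in the dark. AT3G21690 was higher by 0.68 ± 0.22 (limma adjusted p = 0.0443). That call was lost without any of 10 arrays, all but light intact replicate 1 and light wounded replicate 3 (limma adjusted p between 0.0504 and 0.145). With the block on all 12 arrays AT3G21690 passed (limma adjusted p = 0.00578). In wounded rosettes AT5G44050 was higher in the light by 1.08 ± 0.32 (limma adjusted p = 0.0485), the 1 call of the 17, against 4.86% of all probe sets called higher and 7.42% lower. It was lost without dark intact replicate 3, dark wounded replicate 2 or 3, light intact replicate 3, or light wounded replicate 1 or 2 (limma adjusted p between 0.0608 and 0.167), and with quantile normalization (0.0506). With the block on all 12 arrays AT5G44050 passed here too (limma adjusted p = 0.00317). Under the block 8 of the 17 passed in intact rosettes, 4 higher and 4 lower, and 5 in wounded rosettes, 3 higher and 2 lower, against 40.7% and 28.9% of all probe sets. AT3G23550 had the largest of these differences, with light minus dark at -1.66 in intact and -1.70 in wounded rosettes (limma with the block, adjusted p = 0.000518 and 0.000744). In intact rosettes the block also added AT5G44050 (0.88, limma adjusted p = 0.0057) and AT5G52450 (0.74, 0.00346). Lower in the light there were AT1G66760 (-0.89, 0.0266, limma), AT2G38330 (-0.39, 0.0287) and AT1G15170 (-0.59, 0.04). In wounded rosettes it also added AT3G26590 (0.83, 0.00203, limma), AT5G52450 (0.46, 0.0418) and AT2G38330 (-0.46, 0.0187). Without the block it passed in intact rosettes when dark intact replicate 1 was left out (limma adjusted p = 0.0176). Calls in intact rosettes also came about for AT5G44050 without dark intact replicate 1 (0.0363, limma) or light intact replicate 2 (0.0494), for AT5G52450 without dark intact replicate 2 (0.0475) and for AT2G38330 without dark intact replicate 3 (0.0393) or with quantile normalization (0.0429). In wounded rosettes AT3G26590 and AT2G38330 were called without dark intact replicate 1 (limma adjusted p = 0.0488 and 0.0304) or 3 (0.0350 and 0.0494). The 25S control was higher in dark intact than in light intact rosettes. With it as a covariate neither AT3G26590 (0.83 ± 0.39, limma adjusted p = 0.243) nor AT3G21690 (0.38 ± 0.34, 0.569) passed. The SEs were wider, and the probe sets called in intact rosettes fell from 3147 to 778.

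The wound effects of the 17 loci did not differ detectably between light and dark. None passed limma's test of the interaction, 0 had an unadjusted p under 0.05, and with the block 0 passed and 1 had an unadjusted p under 0.05. Over all tested probe sets 0.0147% were called for the interaction and 0.0369% with the block, so that few differences of this kind could be called in this design.

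Of the 68 genes on lists of ABA transport, synthesis, catabolism, signalling and response, 7 were matched to a probe set of 1 gene. All 7 were tested. The annotation used lists no gene for 8730 probe sets, so an unmatched gene may still have one on the array. None of the 5 other ABA transporters and none of the 29 signalling genes was matched, so DTX50 is the 1 transporter of ABA that could be read here. Of the 7 genes 2 rose after wounding in the light and 2 in the dark, and 0 fell in either, with 0 lower at an unadjusted p under 0.05 in both (limma). Over all tested probe sets 8.48% were called higher and 6.37% lower in the light, and 5.84% and 2.28% in the dark. Their median difference was 1.01 in the light and 0.53 in the dark, against -0.15 and -0.08 over all tested probe sets. The 2 were the dehydrins LTI30 and COR47, which protect cells during drying and cold. LTI30 read 10.11, 9.22 and 10.44 in light intact and 12.25, 11.99 and 11.89 in light wounded rosettes, a rise of 2.12 ± 0.31 (limma adjusted p = 0.000905). In the dark it rose by 2.23 ± 0.31 (0.00175, limma). COR47 rose by 1.01 ± 0.20 in the light (limma adjusted p = 0.00474) and by 0.96 ± 0.20 in the dark (0.0110). With the 25S control as a covariate the changes in the dark were 2.07 ± 0.48 for LTI30 and 1.06 ± 0.30 for COR47. Neither passed (limma adjusted p = 0.0595 and 0.117). The SEs were wider than without the covariate, and the probe sets called for wounding in the dark fell from 1102 to 248. The control itself was highest in dark intact rosettes, so its part and that of the group are hard to separate.

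UGT71B6, a glucosyltransferase that conjugates ABA to glucose, and BGLU33, a glucosidase that releases ABA from that conjugate, did not pass for wounding in the light (1.05 ± 0.47, limma adjusted p = 0.177, and 0.13 ± 0.37, 0.855). In the dark they did not pass either (0.83 ± 0.47, limma adjusted p = 0.406, and 0.32 ± 0.37, 0.744). With the block UGT71B6 passed in the light (adjusted p = 0.0299, limma), as did the late embryogenesis abundant protein gene LEA4-5 (1.03, 0.0287). By experiment LEA4-5 rose by 1.80, 0.01 and 1.29 in the light, from 5.07, 5.06 and 5.06 in intact rosettes. It also passed when light wounded replicate 2 was left out (limma adjusted p = 0.0155), which is the array without a rise (5.08). In the dark LEA4-5 did not pass (0.53 ± 0.42, limma adjusted p = 0.593). The block took the count in the light from 2 to 4 of the 7, where it called 27.3% of all probe sets. UGT71B6 was lower in the light, with light minus dark at -2.18 ± 0.47 in intact rosettes (limma adjusted p = 0.00735) and -1.96 ± 0.47 in wounded rosettes (0.0202). The second of these calls was lost without dark wounded replicate 2 or 3 or light wounded replicate 1 or 3 (limma adjusted p between 0.0554 and 0.0862), and the first with the 25S covariate (-2.26, 0.126). COR15A and COR15B, which encode protective proteins of the chloroplast, had higher levels under light, in intact rosettes by 1.29 ± 0.14 and 1.69 ± 0.26 and in wounded rosettes by 1.56 ± 0.14 and 1.53 ± 0.26 (limma adjusted p between 0.000105 and 0.00361). That of COR15B in intact rosettes did not pass with the 25S covariate (1.55, limma adjusted p = 0.0654). For wounding neither COR15A (0.22 in the light and -0.05 in the dark) nor COR15B (-0.28 and -0.12) passed (limma adjusted p between 0.346 and 0.907). COR47 passed for light in intact rosettes (lower in the light) when dark intact replicate 1 was left out (limma adjusted p = 0.0348), and LEA4-5 for light in wounded rosettes when light wounded replicate 2 was left out (0.0337). By experiment, light minus dark of LEA4-5 in wounded rosettes was 1.28, 0.07 and 1.26. None of the 7 passed limma's test of the interaction and 0 had an unadjusted p under 0.05, with or without the block.

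The genes whose profile was most like that of DTX50 were found by centring each gene on its own mean and taking the root mean square difference from DTX50 over the 12 arrays, on the log2 scale. Among 7178 tested genes with a probe set of their own, the 10 nearest differed by 0.48 to 1.17, the next by 1.18 and the median gene by 3.20. Of the 13567 tested probe sets, those without a single matched gene in the annotation were not ranked. The annotation lists no gene for 8730 probe sets of the array, so nearer genes among these would have been missed. This likeness is a description, since all genes share the arrays and the split into wounded and intact rosettes. The nearest was AT4G27654 (0.48), which read 3.20, 3.34 and 3.28 in light intact, 10.26, 10.11 and 9.87 in light wounded, 3.05, 3.96 and 3.45 in dark intact and 9.49, 9.43 and 8.99 in dark wounded rosettes. AT1G19210 (0.62), AT3G53600 (0.68), AT2G14290 (0.86) and CML37 (0.97), a calmodulin-like calcium sensor, came next. They were followed by AT2G22760 (0.99), AT3G02840 (1.05), AT5G38700 (1.06), AT3G43250 (1.11) and AT4G29780 (1.17). None of the 10 is on the MATE or ABA lists. The nearest genes of the MATE list were AT1G61890, at place 34 with a difference of 1.60, and AT1G11670, at place 46 with 1.69. Ranked by Pearson's r over the 12 arrays instead, 5 of the 10 genes stayed among the nearest 10.

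Like DTX50, 7 of these 10 genes had at least 1 intact group with a mean below log2 4. AT3G02840 and AT4G29780, by contrast, read between 4.69 and 7.53 and between 6.66 and 8.97 on the intact arrays, above the lower end of the scale. The ranking used all 12 arrays, so likeness between experiments within a group is part of what chose these genes, and for genes dim in intact rosettes it is read near the lower end of the scale. Light intact replicate 1, the highest of its group for DTX50, was the highest for 8 of them, and dark intact replicate 1, the lowest of its group for DTX50, was the lowest for 6. CML37 read 3.65 in dark intact rosettes of experiment 1 and 5.80 and 5.89 in the other two, where DTX50 read 2.79, 3.16 and 3.79. The difference between light and dark in wounded rosettes was above 0 on average for 7 of the 10 and in every experiment, as for DTX50, for 4. Over all tested probe sets its median was 0.01, and the share above 0 in every experiment is not given, so these counts are a description. The largest of these mean differences was that of AT5G38700, at 8.09, 8.11 and 8.25 in light wounded against 6.24, 6.72 and 6.69 in dark wounded rosettes, a difference of 1.60 where DTX50 had 0.50. AT2G14290 had 1.47, at 8.20, 8.92 and 7.28 in light wounded and 7.13, 6.89 and 5.98 in dark wounded rosettes. Neither gene's groups overlapped, narrowly so for AT2G14290 (7.28 against 7.13), and the share of all probe sets that part in this way is not given.

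**Figure D4:**
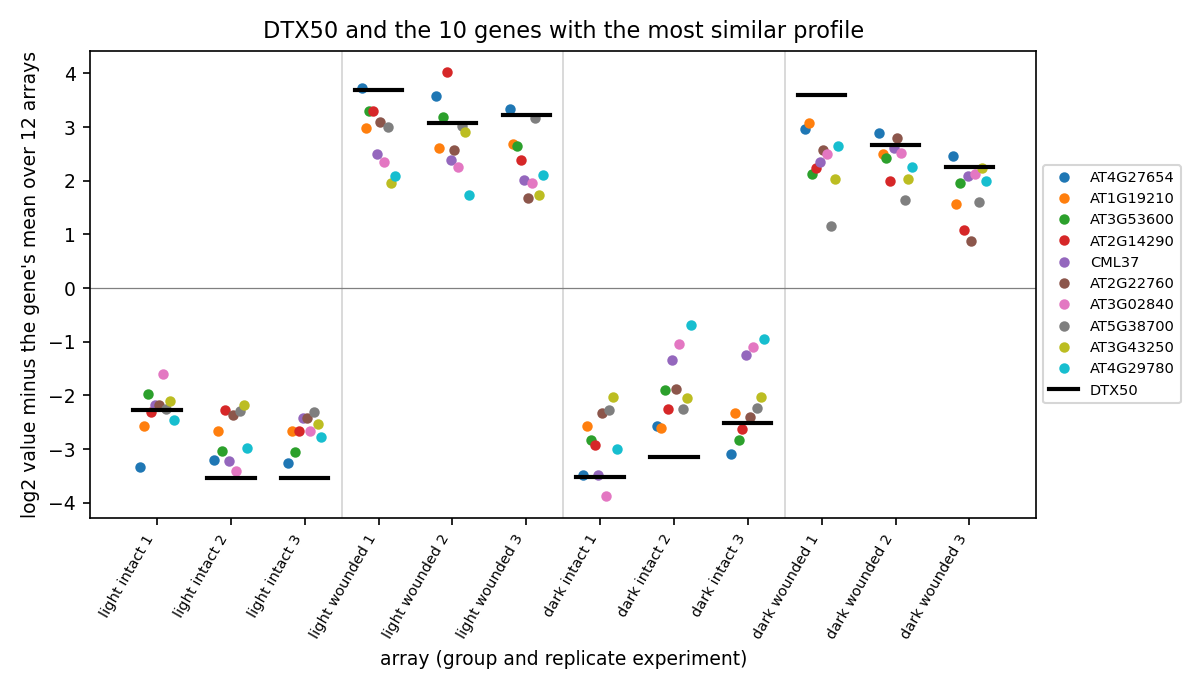
Log2 value minus the gene's mean over the 12 arrays (vertical axis) on each array (horizontal axis, by group and replicate experiment). Black bars are DTX50. Coloured points, shifted sideways for legibility, are the 10 genes, among those compared, with the smallest root mean square difference from it. The values of all 11 genes lie below 0 on the 6 intact arrays and above 0 on the 6 wounded arrays.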

How the data were processed

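Affymetrix arrays of 12 rosette RNA extracts were read from a table of log2 values deposited by the authors, made with GCRMA per the submitters' processing notes, whose version is not given. The table holds 22810 probe sets, 64 of them controls. Each of its 12 columns was matched to 1 sample, and 0 columns of per-sample values were left unused. Gene names came from the platform annotation, updated through RefSeq, where 13436 of 13513 probe sets of 1 gene matched a locus; 503 listed several genes and 8730 none. The brightest probe set stood for a gene. A probe set at or above log2 4 on 3 arrays was tested, and 9179 were too dim. The 4 groups were fitted together with limma 3.58.1 in R 4.3.3, and p-values were adjusted by Benjamini-Hochberg over all 13567 probe sets at 0.05. The code was tested on simulated data. Replicate numbers mark experiments that held all 4 treatments: deviations of same-numbered arrays correlated at 0.30 to 0.76 (18 pairs), and of other pairs at -0.47 to -0.07 (36 pairs). The main design left the experiment out, and the block is given where it changed a call of a MATE or ABA list gene. Alternatives were other filters, median centring, quantile normalization, the floor, and leaving out each array. The rule for named genes took DTX50, the 10 genes most like it, up to 12 tested MATE members with values for each called one, and each called ABA gene or, in a list with none called, its 2 brightest; list members whose call a setting changed were named after their values were seen, and the lists and members were chosen with earlier results of these data known.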

Additional observations from a re-analysis of the deposited data

How the results depend on the processing

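The DTX50 differences kept their direction under median centring, quantile normalization and the 25S covariate, which was chosen after seeing the data. Without 1 array each they ranged from 6.24 to 6.87 (wounding in the light), 5.52 to 6.19 (wounding in the dark), -0.47 to 0.22 (light, intact), 0.21 to 0.88 (light, wounded) and 0.26 to 0.97 (interaction). The lowest fold was 78.7 in the light and 56.8 in the dark with a floor of log2 3, and 25 in the light and 17.7 in the dark with a floor of 5. The replicate block raised the probe sets called from 2015 to 3699 and 1102 to 2043 for wounding in the light and dark, from 3147 to 5516 and 1666 to 3922 for light in intact and wounded rosettes, and from 2 to 5 for the interaction. It raised the MATE genes called to 5, 4, 8 and 5 and the ABA genes for wounding in the light to 4; none of the 19 calls on list genes was lost with it. With the 25S covariate 248 probe sets were called for wounding in the dark, 778 for light in intact rosettes and 0 for the interaction, with 0 MATE genes for light in either state, 0 ABA genes for wounding in the dark and 1 for light in intact rosettes. The interaction had 0 probe sets at a filter of log2 5 and 1 with quantile normalization, where 0 MATE genes were called for light in wounded rosettes. Without 1 array, the probe sets called numbered 1319 to 2058, 658 to 1082, 2142 to 3245, 935 to 1798 and 0 to 12, the MATE genes 2 to 4, 2 to 3, 1 to 3, 0 to 3 and 0 to 0, and the ABA genes 2 to 3, 2 to 2, 3 to 4, 2 to 4 and 0 to 0. Intact levels of DTX50 near the low end of the scale limit its fold. Without the brightness filter the calls of AT5G44050 for wounding in the dark and for light in wounded rosettes (adjusted p = 0.121 and 0.110, limma), AT3G21690 for light in intact rosettes (0.0787) and UGT71B6 for light in wounded rosettes (0.0617) were lost, and that of AT5G44050 for light in wounded rosettes was lost with the 25S covariate (0.0609).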

Other observations

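The genes next to DTX50 on its chromosome were read as well, the 5 nearest protein-coding genes on each side in the RefSeq annotation. Of these 10, 5 were matched to a probe set of 1 gene and 4 were tested. AT5G52020, the fourth gene to one side, read higher after wounding, by 3.60 in the light and 2.64 in the dark. Its means were 3.37 ± 0.04 in light intact and 6.97 ± 0.16 in light wounded rosettes, and 3.60 ± 0.15 and 6.24 ± 0.50 in the dark (SD, n = 3). Both intact means lay below log2 4, and the gene passed the brightness filter through its wounded arrays. Its differences are therefore those of the deposited values and are given as a description. The 3 other tested neighbours did not pass for wounding without the block (-0.59 to -0.21 in the light and -0.49 to -0.07 in the dark). With the block AT5G52070 fell in the light (-0.59, limma adjusted p = 0.0288) and AT5G52010 in the dark (-0.43, 0.0394). These neighbours were looked at after the values of DTX50 were known.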
